A study of Mus musculus with 11 samples.

Results

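Antigen presentation by MHC class II was followed through 10 genes in sorted mouse liver cells: H2-Aa, H2-Ab1, H2-Eb1, H2-DMa, H2-DMb1, H2-Oa, H2-Ob, Cd74, Ciita and Ctss. They were found by gene symbol in the platform annotation, and all 10 were measured, each by 1 feature, among 23185 named genes and 25206 features of the array. RNA of non-parenchymal cells (the cells of a digested liver other than hepatocytes) was hybridised to Affymetrix MoGene 2.0 ST arrays after cells had been sorted on yellow fluorescent protein (YFP), a lineage label. The 11 arrays formed 4 groups. YFP+ UTR (n = 2) held labelled cells of untreated mice, and YFP- (n = 3) held the unlabelled cells of untreated mice, which are a mixture of cell types. YFP+ CDE (n = 3) held labelled cells of mice given CDE, known as the choline-deficient, ethionine-supplemented diet, for which the labels state no duration. YFP+ DDC (n = 3) held labelled cells of mice on the DDC diet, a porphyrin-raising diet that injures bile ducts, for 5 weeks, with 4 mice stated. The labels name neither the promoter that drives the lineage label, the strain nor the age of the mice. Nor do they tell whether each array stands for its own animal or pool; p-values therefore describe the spread among these arrays, part of which may be technical.

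MHC class II molecules are pairs of an alpha and a beta chain that show peptides from endosomes to CD4+ T cells. The chains assemble on the invariant chain (Cd74), the protease cathepsin S (Ctss) trims that chain in endosomes, and H2-DM exchanges the remaining fragment for an antigenic peptide. H2-O restrains H2-DM in B cells and some dendritic cells, and Ciita is the transactivator that switches the genes on. B cells, dendritic cells and macrophages are among the presenting cells of the liver, and epithelia can acquire class II under interferon gamma.

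All values below are deposited expression values on a log2 scale, so a difference of 1 is a factor of 2 in signal. Medians of the arrays lay between 5.63 and 5.76, and the highest feature of each array between 13.25 and 13.57. The YFP+ arrays were high in biliary markers: the mean over 6 biliary markers was 10.40 to 10.75 on the 8 YFP+ arrays, against 8.23, 5.53 and 4.99 on YFP- replicates 1, 2 and 3. The biliary keratin gene Krt19 read 8.28 on YFP- replicate 1 and 4.64 and 4.65 on the other two YFP- arrays. The YFP- arrays differed from each other in their blood cell markers too: the T cell receptor subunit gene Cd3e read 4.43, 10.73 and 4.53, and the macrophage surface gene Adgre1 read 8.88, 8.89 and 11.65. The mean over 8 sinusoidal endothelial markers was 11.84, 10.25 and 10.64 on YFP- replicates 1, 2 and 3, against 5.18 to 6.05 on the YFP+ arrays. In such bulk samples, fewer cells of a type and less RNA per cell cannot be told apart.

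Promoter sequences of the set are printed because class II genes are known for a shared promoter layout. RefSeq entries (GRCm38.p6) were at hand for 7 of the 10 genes, in 8 windows running from 250 bases before to 50 bases after the gene start; the genes without a printed promoter are H2-Ab1, Cd74 and Ciita. Class II promoters are known for an X box, bound by the RFX complex, followed by a Y box, bound by NF-Y. The letters GNAAC (in the X box) and ATTGG (the Y box core, the reverse complement of CCAAT) were searched on both strands, with 30 to 33 bases between their starts, a spacing chosen after these promoters were read. The pair was found on the gene's own strand in 5 of the 7 genes. It occurred on that strand in 0.353% of all 32851 promoter windows (116 windows), and on either strand in 0.712%. The letters alone are common: GNAAC was in 84.8% of windows and ATTGG in 37.4%.

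The 5 pairs are shown because their layout is alike in genes whose values on these arrays differ. Each line gives 1 stretch from 5' to 3' on the gene's strand, with the searched letters in capitals.
H2-Aa X: agctgGCAACtttgacgtcatcac
H2-Aa Y: tctgATTGGttctg
H2-Eb1 X: aactaGCAACtgatgatgctggac
H2-Eb1 Y: gctgATTGGctccc
H2-DMb1 X: acctaGTAACtgatgatgctaggc
H2-DMb1 Y: agtgATTGGtctga
H2-Oa X: gcccaGCAACaaacccattatctc
H2-Oa Y: tctgATTGGctgct
H2-Ob X: gcctaGCAACaaatgatgcaaagt
H2-Ob Y: cttgATTGGttaac

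All 5 lie on chromosome 17, upstream of the gene start. Each range below runs from the first to the last printed base of a gene, flanking letters included. Distances to the gene start are counted from the first base of GNAAC. The range of H2-Aa is chr17:34287862-34287909 on the minus strand, and its GNAAC begins 81 bases before the start. The other 4 are on the plus strand: H2-Eb1 at chr17:34305771-34305817 (91 bases before the start), H2-DMb1 at chr17:34153092-34153139 (94 bases), H2-Oa at chr17:34092298-34092345 (76 bases) and H2-Ob at chr17:34238813-34238857 (87 bases). GNAAC and ATTGG started 33 bases apart in H2-Aa, H2-DMb1 and H2-Oa, 32 apart in H2-Eb1 and 30 apart in H2-Ob. In H2-DMa and Ctss these letters at this spacing are not in the window. A match describes the letters and does not show binding.

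The lineage comparison asked how YFP+ cells differ from the other non-parenchymal cells of the untreated liver. The classical chains, H2-DM, the invariant chain and cathepsin S were lower in YFP+ UTR than in YFP- cells, by 3.00-fold for Cd74 to 12.1-fold for Ctss. The H2-O chains and Ciita did not pass the test there. With all YFP+ groups averaged, Ciita passed as well. None of the 10 genes was higher in YFP+ cells in either comparison.

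**Figure D1:**
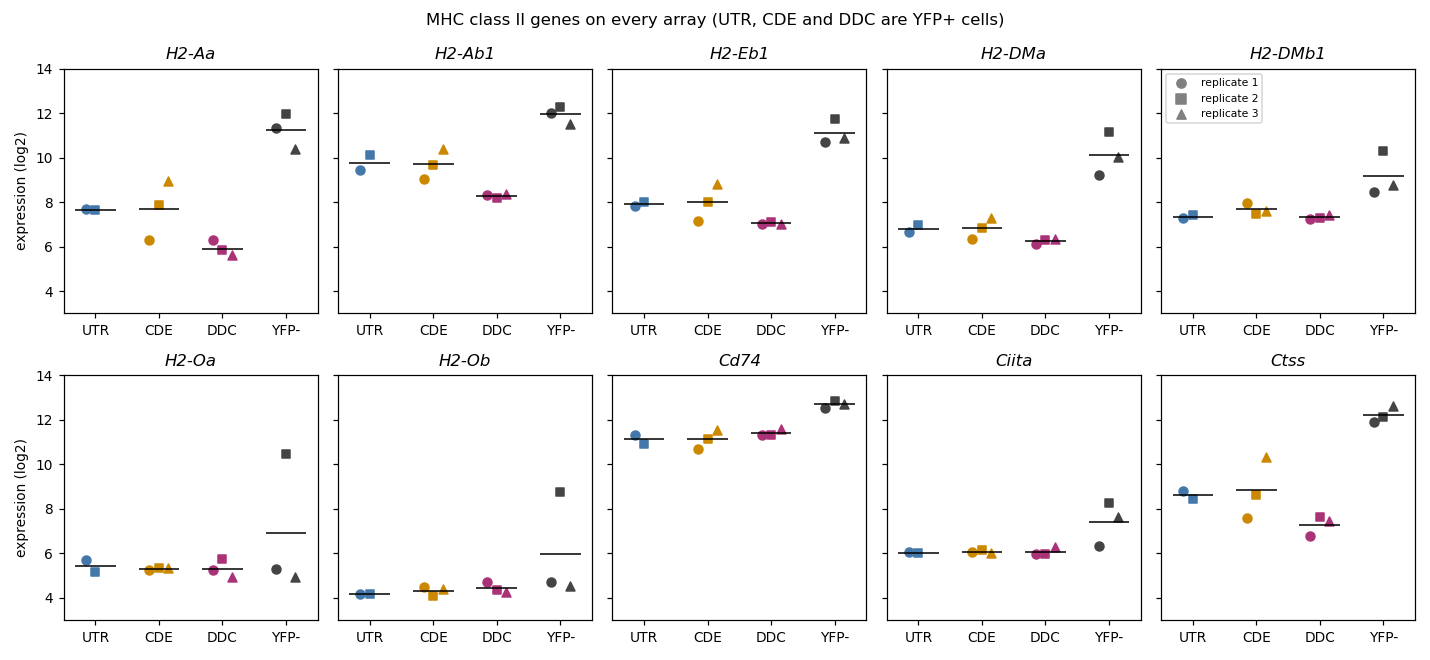
Log2 expression of the 10 class II presentation genes on each of the 11 arrays, 1 panel per gene, with arrays coloured by group and a bar at each group mean. YFP- arrays are above every YFP+ array for 8 genes, whereas H2-Oa and H2-Ob are high on YFP- replicate 2 only.

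Among the classical chains, the alpha chain gene H2-Aa read 7.67 and 7.63 on the UTR arrays and 11.32, 11.97 and 10.38 on the YFP- arrays. The groups were far apart, and the difference of -3.57 ± 0.68 (SE, adjusted p = 0.00606, limma) is 11.9-fold lower. Its partner H2-Ab1, the beta chain of the same molecule, read 9.42 and 10.10 against 12.003, 12.29 and 11.51. That difference was -2.17 ± 0.38 (SE, adjusted p = 0.00367, limma), or 4.51-fold lower. H2-Eb1, the beta chain of the other classical molecule, read 7.81 and 7.98 against 10.70, 11.73 and 10.90. Again every UTR array was below every YFP- array, and the difference was -3.21 ± 0.44 (SE, adjusted p = 0.00111, limma), or 9.28-fold lower. H2-Ea, the alpha chain partner of H2-Eb1 and a transcribed pseudogene in RefSeq's annotation, was near the floor in all YFP+ groups and read 4.07, 5.20 and 4.07 on the YFP- arrays. Near the floor here means a group mean under the lower quartile of all values on the group's arrays, which was 4.31 to 4.35.

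For the peptide exchange factor, H2-DMa read 6.65 and 6.97 on the UTR arrays and 9.20, 11.17 and 10.03 on the YFP- arrays. It was lower in UTR cells, with a difference of -3.32 ± 0.48 (SE, adjusted p = 0.00156, limma); the same comparison fitted to these 5 arrays alone gave an adjusted p of 0.0603, in a range of 0.000144 to 0.0603 over the alternatives. H2-DMb1, its beta chain, read 7.27 and 7.40 against 8.45, 10.29 and 8.75, with YFP- replicate 2 well above the other YFP- arrays. The difference was -1.83 ± 0.45 (SE, adjusted p = 0.0196, limma), or 3.55-fold lower. It did not pass without UTR replicate 1 (0.113), without UTR replicate 2 (0.0937) or with the 5 arrays alone (0.181), and alternatives ran from 0.00162 to 0.181. H2-DMb2, a close paralog that encodes a second beta chain of H2-DM, read 2.97 to 3.99 on the YFP+ arrays and 5.86, 11.45 and 7.83 on the YFP- arrays. Whether H2-DMb1 and H2-DMb2 share signal on this array was not tested.

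The H2-O genes followed a different course on the arrays. H2-Oa, its alpha chain, read 5.31, 10.46 and 4.94 on YFP- replicates 1, 2 and 3, and 4.94 to 5.77 on the 8 YFP+ arrays. H2-Ob, the beta chain, read 4.69, 8.76 and 4.53 on the YFP- arrays and 4.08 to 4.73 on the YFP+ arrays. So both genes stood high on a single array, YFP- replicate 2, and the other two YFP- arrays lay within or below the YFP+ range. The difference UTR minus YFP- was -1.48 ± 1.34 for H2-Oa (SE, adjusted p = 0.497, limma) and -1.82 ± 1.04 for H2-Ob (SE, adjusted p = 0.27), the latter a lower bound in size because H2-Ob was near the floor in UTR. Without YFP- replicate 2 these differences were 0.30 and -0.44.

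On YFP- replicate 2 many markers of lymphocytes and other blood cells were high as well. Among the YFP- arrays it was the highest for 5 of 5 B cell, 7 of 7 T and NK cell, 6 of 6 monocyte and neutrophil and 6 of 9 dendritic cell markers. Of the T and NK cell markers, Klrb1c read 6.71, 6.74 and 6.07 on YFP- replicates 1, 2 and 3, and 6.27 to 7.04 on the YFP+ arrays. In contrast, 10 of 10 macrophage and Kupffer cell markers were highest on YFP- replicate 3, and 8 of 8 sinusoidal endothelial markers on YFP- replicate 1. The B cell receptor subunit gene Cd79a read 4.18, 10.11 and 4.24 on YFP- replicates 1, 2 and 3, and the dendritic cell receptor gene Flt3 read 4.21, 8.04 and 4.18. The dendritic cell genes Zbtb46 (8.50, 6.44 and 6.92), Clec9a (8.42, 8.14 and 7.13) and Batf3 (6.06, 8.75 and 10.86) were highest on another array. The mean over 5 B cell markers was 4.97, 9.47 and 6.05 on these arrays and 4.44 to 4.63 on the YFP+ arrays. Over 9 dendritic cell markers the means were 6.13, 8.55 and 6.12, against 4.83 to 5.02 on YFP+ arrays, and over 7 T and NK cell markers 4.93, 9.89 and 5.17, against 4.79 to 5.01. Over 6 monocyte and neutrophil markers they were 7.67, 10.41 and 7.27, against 4.25 to 5.46. The part of these cells in the H2-Oa and H2-Ob values was not tested. H2-Eb2, a class II beta chain gene outside the set, showed the same single high array, with 3.88, 7.30 and 4.48.

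Cd74, the invariant chain, read 11.31 and 10.93 on the UTR arrays and 12.54, 12.84 and 12.73 on the YFP- arrays. The difference of -1.58 ± 0.24 (SE, adjusted p = 0.00175, limma) is 3.00-fold lower. No UTR array reached a YFP- array. Ctss, which cleaves the invariant chain, read 8.82 and 8.43 against 11.91, 12.12 and 12.63. The difference was -3.60 ± 0.65 (SE, adjusted p = 0.00472, limma), or 12.1-fold lower. Ciita, the transactivator, read 6.06 and 6.02 on the UTR arrays and 6.32, 8.26 and 7.65 on the YFP- arrays. YFP- replicate 1, the array with the highest Krt19 of its group, was 0.05 above the highest YFP+ array for Ciita. The Ciita difference of -1.37 ± 0.44 (SE, adjusted p = 0.0588, limma) missed the threshold. Alternatives gave adjusted p-values from 0.000154, without YFP- replicate 1 and with a difference of -1.92, to 0.288.

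Counted together, 7 of the 10 genes were called lower in UTR than in YFP- cells (limma, adjusted p under 0.05), where 8.46% of all 23185 genes were called lower. None was called higher, where 10.4% of all genes were. In 9 of the 10, every UTR array lay below every YFP- array, which held for 20.5% of all genes. The median difference over the set was -2.00, beside -0.01 over all genes. Leaving out 1 array at a time left 6 to 8 genes called, with 6 when either UTR array was left out, and the 5 arrays alone gave 5.

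The 3 YFP+ groups were then averaged with equal weight and set against the same YFP- arrays. H2-Aa was lower by 17.7-fold, with a difference of -4.14 ± 0.51 (SE, adjusted p = 0.000314, limma). The differences were -2.69 ± 0.28 for H2-Ab1, -3.47 ± 0.33 for H2-Eb1, -3.51 ± 0.36 for H2-DMa and -1.72 ± 0.33 for H2-DMb1 (SE). For the accessory genes they were -1.49 ± 0.18 for Cd74, -3.97 ± 0.49 for Ctss and -1.35 ± 0.33 for Ciita (SE), the last with an adjusted p of 0.0127. All of these 8 passed, which is 8 of 10 called lower beside 14.3% of all genes, and none was called higher beside 16.3%. H2-Oa (-1.55 ± 1.00, adjusted p = 0.272) and H2-Ob (-1.67 ± 0.77, adjusted p = 0.136) did not pass. Every YFP+ array was below every YFP- array for the same 8 genes, a pattern seen in 11.7% of all genes. The smallest gap was that of Ciita, 0.05, and the largest that of H2-DMa, 1.92. Ciita was no longer called without YFP- replicate 3 (adjusted p = 0.0516, in a range of 2.78e-05 to 0.0516 over the alternatives). Both comparisons use the same YFP- arrays and are not independent.

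**Figure D2:**
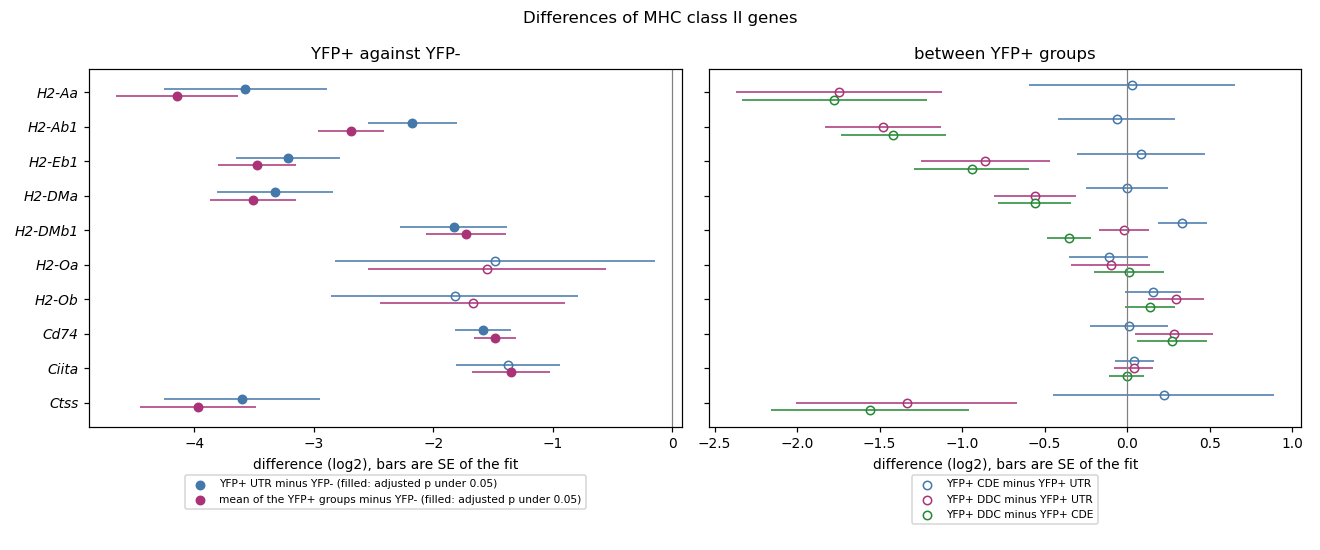
Differences in log2 expression of the 10 genes, with points at the fitted difference and bars of 1 SE, in separate panels for the comparisons with YFP- cells and for the diet comparisons within YFP+ cells. Filled points passed an adjusted p of 0.05 (limma); the diet panels contain none.

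The rest of the presentation pathway was read from lists. Of 8 genes of endosomal processing, 6 were lower in UTR than in YFP- cells, beside 8.46% of all genes, and none higher. They included Lgmn, the asparaginyl endopeptidase (-3.53 ± 0.45), Ctsc, cathepsin C (-3.14 ± 0.49), Ifi30, the thiol reductase that unfolds antigens (-2.75 ± 0.54), and Ctsb, cathepsin B (-1.51 ± 0.32; all SE). With the YFP+ groups averaged, 7 of the 8 were lower, beside 14.3% of all genes. Their median difference was -1.48 in the UTR comparison.

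Of 8 genes of costimulation and class II turnover, 6 were lower and 1 higher in both comparisons. Over all genes, 8.46% were lower and 10.4% higher in the UTR comparison, and 14.3% and 16.3% with the YFP+ groups averaged. The costimulatory ligand genes Cd86 (-5.19 ± 0.80 in UTR) and Cd80 (-2.996 ± 0.71) were near the floor in YFP+ cells, so these are lower bounds. Cd274, which encodes PD-L1, was lower by -2.43 ± 0.49, and Icosl, the ligand of ICOS, by -2.15 ± 0.29 (SE). The member that was higher, named here after its values were seen, was Marchf8, a ubiquitin ligase that removes class II from the surface, at 1.17 ± 0.34 (SE, adjusted p = 0.0425, limma). Marchf1, a gene of the same family on that list, also named after its values were seen, went the other way. It was lower, at -0.66 ± 0.11 (SE, adjusted p = 0.00246, limma). The paralog chain H2-DMb2 was lower, with a difference of -5.24 ± 1.23 (SE, adjusted p = 0.0163, limma) that is a lower bound in size, the single one called of 3 other class II chain genes.

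The factors that bind class II promoters had no common direction. None of 7 passed in the UTR comparison, where 8.46% of all genes were lower and 10.4% higher. With the YFP+ groups averaged, Rfx5, the DNA-binding subunit of the RFX complex, was higher by 0.53 ± 0.17 (SE, adjusted p = 0.0452, limma), and Nfyb, a subunit of NF-Y, was lower, at -0.57 ± 0.17 (SE, adjusted p = 0.0358). In the interferon gamma pathway upstream of Ciita, 2 of 6 genes were lower in UTR cells, beside 8.46% of all genes. They were the kinase genes Jak2 (-1.85 ± 0.27) and Jak1 (-1.52 ± 0.26, SE). All 6 were lower with the YFP+ groups averaged, beside 14.3% of all genes. Among them were the feedback inhibitor Socs1 (-1.01 ± 0.33) and the receptor chain Ifngr2 (-0.73 ± 0.21, SE).

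MHC class I presentation, which serves CD8+ T cells and is made by nearly all cells, is the other branch of peptide display. Of 13 class I genes, 3 were lower in UTR cells, beside 8.46% of all genes: the immunoproteasome subunit Psmb10 (-1.004 ± 0.17), the peptide transporter subunit Tap2 (-0.67 ± 0.20) and the trimming peptidase Erap1 (-0.59 ± 0.14, SE). With the YFP+ groups averaged 6 were lower, beside 14.3% of all genes, led by Psmb8 (-1.05 ± 0.25), another immunoproteasome subunit. The class I light chain B2m read 12.98 to 13.18 over all 11 arrays, and the heavy chains H2-K1 and H2-D1 were not called. B2m and H2-D1 (12.85 to 13.18) lay close under the highest feature of each array (13.25 to 13.57), so an upward difference of these genes may not be measurable here. The median difference over the 13 genes was -0.59 in the UTR comparison.

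**Figure D3:**
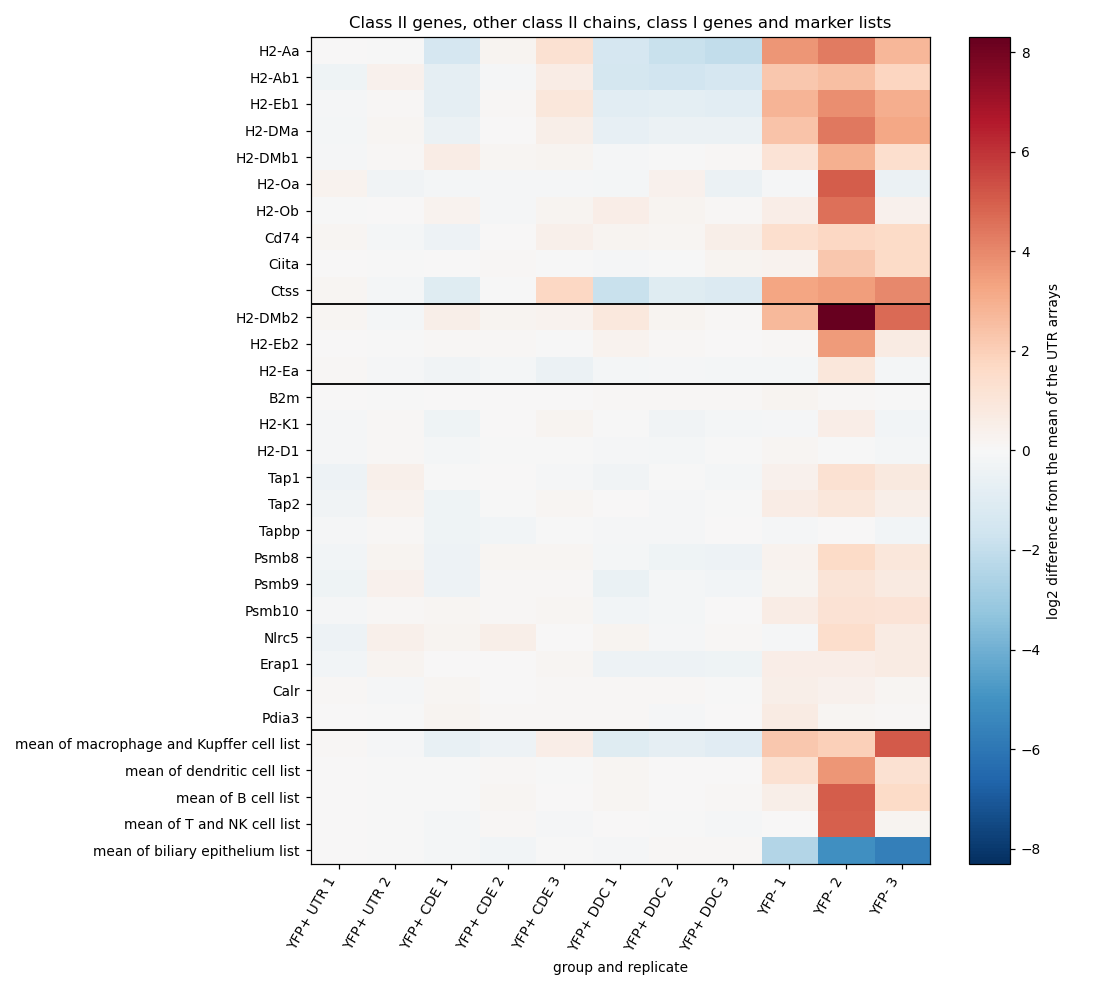
Heat map of log2 expression on each of the 11 arrays, shown as the difference from the mean of the UTR arrays, for class II genes, class I genes and the means of cell type marker lists. Most class II genes are shifted upwards on the YFP- arrays, and the B cell and T and NK cell lists are highest on YFP- replicate 2. B2m and H2-D1 lie close to the top of the array range on all arrays.

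The diet comparisons asked how YFP+ cells changed under injury, and were fitted to the 8 YFP+ arrays. No class II gene passed the test in any of them. Under CDE several genes of the set varied between arrays around the UTR level. H2-Aa read 6.28, 7.85 and 8.92 on CDE replicates 1, 2 and 3, below and above the UTR values of 7.67 and 7.63. H2-Eb1 read 7.13, 7.997 and 8.81 against 7.81 and 7.98, and Ctss read 7.59, 8.61 and 10.33 against 8.82 and 8.43. For each of these 3 genes CDE replicate 1 was the lowest and replicate 3 the highest of its group. The differences CDE minus UTR were 0.03 ± 0.63 for H2-Aa, 0.08 ± 0.39 for H2-Eb1 and 0.22 ± 0.67 for Ctss (SE), so these standard errors exceed the differences. H2-Ab1 (-0.06 ± 0.35), H2-DMa (0.00 ± 0.25), Cd74 (0.01 ± 0.24) and Ciita (0.04 ± 0.12) were likewise within 1 SE of 0. H2-DMb1 was the one gene whose arrays did not overlap, with 7.95, 7.46 and 7.59 against 7.27 and 7.40, a difference of 0.33 ± 0.15 (SE, adjusted p = 0.789, limma). Such separation upwards was seen in 11.5% of all genes.

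None of the 10 genes was called between CDE and UTR, and none had an unadjusted p under 0.05 (limma), where 0% of all genes were called and 6.44% had such a p. The median difference of the set was 0.04, beside 0.00 for all genes. The median SD of the 10 genes within CDE was 0.45, against 0.16 within DDC and 0.17 within UTR, while over all genes the median SD was 0.12, 0.15 and 0.11. This did not hold for each gene: the SD of H2-Oa was 0.049 in CDE, 0.42 in DDC and 0.37 in UTR, and that of Ciita was 0.073 in CDE and 0.17 in DDC. The difference in spread was not tested.

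Under DDC the classical chains gave the lowest readings of the study. H2-Aa read 6.27, 5.84 and 5.61 on the DDC arrays, below both UTR arrays, and the difference from UTR was -1.75 ± 0.63 (SE, adjusted p = 0.381, limma). H2-Ab1 read 8.32, 8.18 and 8.34, again below the UTR values of 9.42 and 10.10, with a difference of -1.48 ± 0.35 (SE, adjusted p = 0.182). H2-Eb1 read 7.01, 7.08 and 7.02, a difference of -0.86 ± 0.39 (SE, adjusted p = 0.502). The 3 DDC arrays were close together for H2-Ab1 (SD 0.087) and H2-Eb1 (SD 0.038). They were farther apart for H2-Aa (SD 0.33), where the median SD over all genes in DDC was 0.15. H2-DMa (6.10, 6.31 and 6.35; difference -0.56 ± 0.25) and Ctss (6.77, 7.62 and 7.47; difference -1.34 ± 0.67) also had every DDC array below every UTR array.

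Cd74 and Ciita did not share these low readings. Cd74 read 11.33, 11.31 and 11.58 on the DDC arrays against 11.31 and 10.93 on the UTR arrays, a difference of 0.28 ± 0.24 (SE, adjusted p = 0.739, limma). It was 0.094 without UTR replicate 2 and 0.47 without UTR replicate 1. Ciita read 5.97, 5.99 and 6.27 against 6.06 and 6.02, a difference of 0.04 ± 0.12 (SE). H2-DMb1 differed by -0.02 ± 0.15 and H2-Oa by -0.10. H2-Ob, near the floor in UTR, differed by 0.30 ± 0.17 (SE) with no overlap of the arrays, as did 12.7% of all genes in that direction, and by 0.16 without DDC replicate 1.

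No member was called between DDC and UTR, where 0.16% of all genes (37) were called. At an unadjusted p under 0.05 (limma) there were 2 of the 10, H2-Aa and H2-Ab1, beside 10.4% of all genes. In 5 of the 10 every DDC array was below every UTR array, beside 11.8% of all genes. The median difference was -0.33 for the set and 0.01 for all genes.

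Between the diets, DDC minus CDE was -1.42 ± 0.32 for H2-Ab1 (SE, adjusted p = 0.0817, limma), whose CDE arrays read 9.05, 9.66 and 10.40. It was -1.78 ± 0.56 for H2-Aa (SE, adjusted p = 0.186), -0.94 ± 0.35 for H2-Eb1 (SE, adjusted p = 0.255) and -1.56 ± 0.60 for Ctss (SE, adjusted p = 0.271). H2-DMa (-0.56 ± 0.22) and H2-DMb1 (-0.35 ± 0.13) had the same sign, and Cd74 (0.27 ± 0.21) the opposite one. None was called, where 1.16% of all genes (269) were. Unadjusted p-values under 0.05 were found for 6 of the 10 genes, beside 15.3% of all genes. In 4 genes, H2-Aa, H2-Ab1, H2-Eb1 and H2-DMb1, every DDC array lay below every CDE array, beside 10.6% of all genes. For H2-Aa this rested on 6.27 against 6.28. The median difference was -0.46, beside 0.01 for all genes. Without CDE replicate 3 the difference was -1.15 for H2-Aa, -0.53 for H2-Eb1, -0.32 for H2-DMa and -0.81 for Ctss. Without CDE replicate 1 it was -0.21 for H2-DMb1 and 0.055 for Cd74. The UTR and CDE comparisons share the DDC arrays and are not independent.

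Macrophage markers also varied over the YFP+ arrays. The mean over 10 macrophage and Kupffer cell markers was 5.88, 6.13 and 7.05 on CDE replicates 1, 2 and 3, 5.53, 5.75 and 5.58 on the DDC arrays, and 6.62 and 6.41 on the UTR arrays. CDE replicate 3, the highest CDE array for H2-Aa, H2-Ab1, H2-Eb1, H2-DMa, Cd74 and Ctss, was also the highest for Adgre1, at 6.66 against 4.32 and 5.09. The Kupffer cell receptor gene Vsig4 read 5.05, 5.82 and 6.89 on the CDE arrays, 4.51, 4.82 and 5.30 on the DDC arrays and 7.04 and 6.64 on the UTR arrays. All 10 macrophage markers had a negative difference DDC minus UTR, 9 of them with no overlap of arrays, beside 11.8% of all genes, with a median of -0.80 and none called. The YFP- arrays had means of 8.73, 8.51 and 11.62 for these markers. The mean over 5 pan-leukocyte markers was 6.02, 6.21 and 7.30 on the CDE arrays, 5.99 to 6.07 on the DDC arrays and 6.42 and 6.34 on the UTR arrays. Of these, Ptprc read 4.83, 4.84 and 5.51 on the CDE arrays, 5.32, 5.34 and 4.51 on the DDC arrays and 4.71 and 5.15 on the UTR arrays. Laptm5, a lysosomal protein gene of blood cells, read 7.02, 7.49 and 9.36 on the CDE arrays, 6.58 to 6.73 on the DDC arrays and 8.17 and 7.52 on the UTR arrays. Its difference DDC minus UTR, -1.17 ± 0.58 (SE), was the largest in size of the 5 pan-leukocyte markers. The list was mixed, with 3 negative differences, 2 positive ones and none called. The positive ones were those of Ptprc (0.13 ± 0.31) and Coro1a (0.15 ± 0.12, SE). Of the measured B cell markers 2 of 5, and of the dendritic cell markers 2 of 9, were near the floor in all 3 YFP+ groups: the B cell genes Cd79a and Ms4a1 and the dendritic cell genes Clec9a and Cd209a. Of the macrophage markers, Cd5l was near the floor in DDC and the other 9 were above it in every YFP+ group. Hepatocyte markers differed between the diets as well. Between DDC and CDE 2 of 7 were lower, beside 172 of all 23185 genes. They were Alb (-0.73 ± 0.09) and Serpina1b (-1.91 ± 0.29, SE), and the median over the list was -0.73. The mean over the 7 was 8.75, 10.14 and 8.80 on the CDE arrays, 8.79, 8.23 and 8.66 on the DDC arrays and 8.28 and 8.50 on the UTR arrays. In 2 of 8 sinusoidal endothelial markers, Clec4g (-1.36 ± 0.38) and Pecam1 (-0.22 ± 0.14, SE), every DDC array was below every UTR array. So it was in 1 of 6 stellate cell markers, Dcn (-1.01 ± 0.44, SE), beside 11.8% of all genes. The median difference DDC minus UTR was -0.24 over the endothelial list and -0.05 over the stellate list. It was positive for 1 of the 8 and 2 of the 6, and no gene of either list was called. These genes were named after their values were seen. The part of RNA from macrophages or other cells in the class II values of YFP+ cells was not tested.

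**Figure D4:**
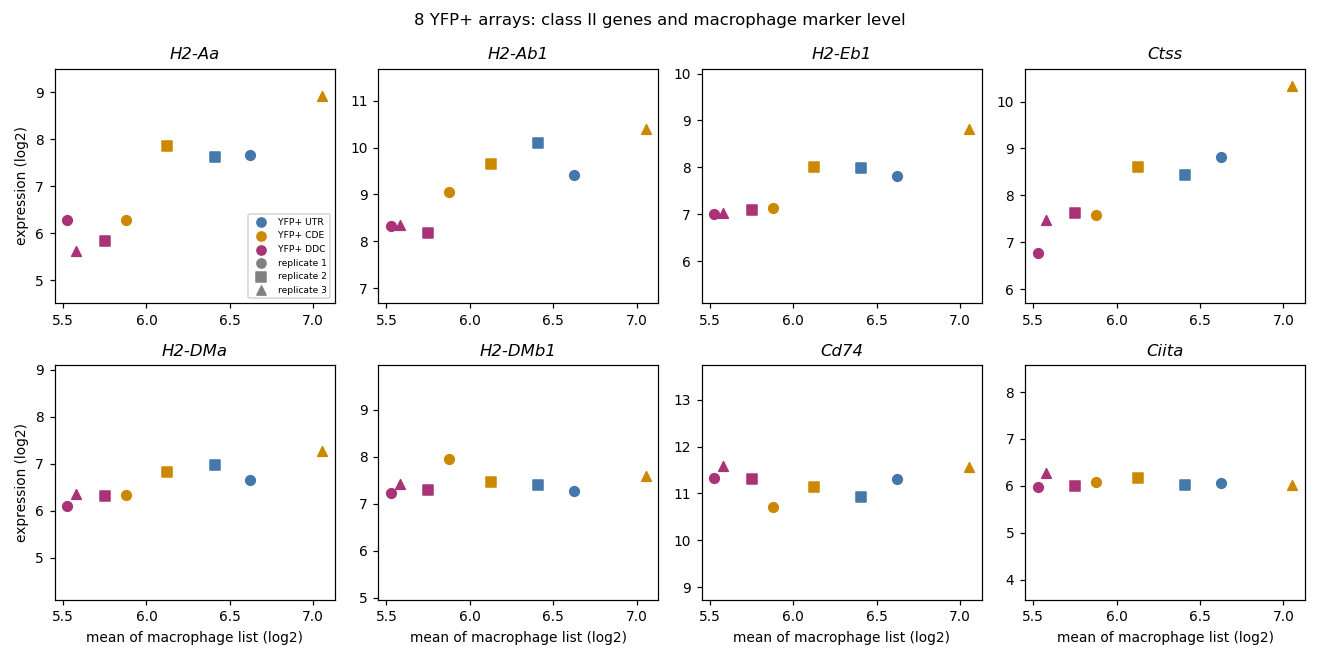
Log2 expression of class II genes on the 8 YFP+ arrays (vertical axis) against the mean log2 level of 10 macrophage and Kupffer cell markers on the same array (horizontal axis), coloured by group, with a marker shape for each replicate. The DDC arrays lie at the left, between 5.53 and 5.75, and CDE replicate 3 lies farthest right, at 7.05.

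In the other pathway lists no gene was called between diets. For CDE minus UTR, Ctsh, cathepsin H, had 0.88 ± 0.14 (SE, adjusted p = 0.271, limma), Lgmn 0.52 ± 0.24 (SE, adjusted p = 0.79) and Jak2 0.51 ± 0.13 (SE, adjusted p = 0.623). For DDC minus UTR the largest in size was that of Jak2, 0.59 ± 0.13 (SE, adjusted p = 0.156). For DDC minus CDE, Nfyc, another NF-Y subunit, had -0.61 ± 0.14 (SE, adjusted p = 0.0927), and Rfxank, a subunit of the RFX complex, -0.54 ± 0.14 (SE, adjusted p = 0.124). Of the class I genes, Erap1 had the largest difference in that comparison, -0.50 ± 0.13 (SE, adjusted p = 0.121).

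The order of the group means was headed by YFP- for all 10 genes. DDC was lowest for H2-Aa, H2-Ab1, H2-Eb1, H2-DMa, H2-DMb1 and Ctss, but for Cd74 and H2-Ob the order below YFP- was DDC, CDE and UTR. Neighbouring YFP+ groups in these orders did not pass any test of their difference.

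Genes with the most similar pattern were sought by the root mean square distance, over the 11 arrays, from the mean profile of H2-Aa, H2-Ab1, H2-Eb1 and Cd74, each profile centred on its own mean. The median distance over all genes was 1.46. The closest genes outside the set were Ubash3b (0.455), Arhgap45 (0.472), Hsd11b1 (0.474), Sh2d1b1 (0.500), Dpy19l1 (0.506), C5ar1 (0.511), Nrros (0.527), Vsir (0.531), Cysltr2 (0.532) and Rnf145 (0.535). C5ar1 encodes the receptor of complement C5a, and Vsir the checkpoint protein VISTA. Within the set, H2-DMa (0.464) was closer than any of these except Ubash3b, while H2-Ob (1.21) and H2-Oa (1.42) were the most distant. Of the genes that define the profile, H2-Eb1 (0.263) and H2-Ab1 (0.274) were the closest to it. H2-Aa (0.711) and Cd74 (0.885) were farther from it than every outside gene named here, so closeness to the profile is not closeness to each of its genes.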

How the data were processed

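Members and gene lists were chosen with earlier results of these data known. The input was the table of log2 values that the authors deposited, with 1 value per feature and array. Base 2 was inferred from their range and is not stated. How the authors corrected background, normalized arrays and summarised probes is not given in the sources used here. No further normalization was applied. Features carry gene numbers, which the platform annotation names, and some listed genes are not reported here. Models were fitted in R 4.3.3 using lmFit and eBayes of limma 3.58.1: all 11 arrays (7 residual degrees of freedom) for comparisons with YFP-, and the 8 YFP+ arrays (5 residual degrees of freedom) for diets. P-values were two-sided and adjusted by Benjamini-Hochberg over 23185 genes, with a threshold of 0.05. Errors of differences are SE of the fit. The fit with YFP- assumes 1 common spread, although the median SD over all genes was 0.26 in YFP- and 0.11 to 0.15 in the YFP+ groups. The number of arrays limits the precision. All members were named with their values; from each other pathway list, up to 4 genes that passed were named by size of difference, or up to 2 where none passed. Fits were tested on simulated data. Array weights, quantile normalization, a trended robust prior, a filter on dim genes, the replicate block, other sample sets and leaving out each array were tried as alternatives.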

Additional observations from a re-analysis of the deposited data

How the results depend on the processing

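For the 10 genes, the calls against YFP- cells held or moved as follows. In UTR minus YFP- 7 were called, 5 with only the 5 arrays of both groups in the fit, and 6 to 8 when 1 array was left out. With the YFP+ groups averaged 8 were called, and 7 to 8 with 1 array left out. No alternative called any of them in a diet comparison. Ciita in UTR minus YFP- passed with array weights (adjusted p = 0.0209), quantile normalization (0.0484) and the filter on dim genes (0.0452). Counts over all genes moved more. In UTR minus YFP- 4373 genes were called, 931 with 5 arrays alone and 2306 to 5817 with 1 array left out. With the YFP+ groups averaged 7083 were called, 4179 with array weights and 5887 to 7797 with 1 array left out. In CDE minus UTR 0 were called, 1 with array weights, 1 with the trended robust prior and 0 to 46 with 1 array left out. In DDC minus UTR 37 were called, 0 with all 11 arrays and 0 to 103 with 1 array left out. In DDC minus CDE 269 were called, 1 with all 11 arrays and 16 to 123 with 1 array left out. The cause was not tested.

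Replicate numbers are shared between groups, but same-numbered arrays did not deviate together (correlations from -0.07 to 0.13). This cannot settle whether the numbers pair samples, because each group has only 2 or 3 arrays. The main fits leave the replicate number out. With the replicate block 7 members and 3696 genes were called in UTR minus YFP-, 8 and 6482 with the YFP+ groups averaged, and 0 members in each diet comparison, with 0 genes in DDC minus UTR and 61 in DDC minus CDE.

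Of the 50 differences of members, 14 changed sign under at least 1 alternative, in 34 of 620 values, none of them called. For CDE minus UTR, quantile normalization gave -0.025 for H2-DMa and -0.053 for Cd74, and the replicate block gave -0.21 for H2-Aa, -0.12 for H2-Eb1, -0.14 for H2-DMa, -0.14 for Cd74 and -0.19 for Ctss. Quantile normalization also gave 0.0050 for H2-DMb1 in DDC minus UTR and -0.023 for H2-Oa in DDC minus CDE. With 1 array left out, H2-Oa ran from -2.46 to 0.30 in UTR minus YFP- and from -2.54 to 0.23 with the YFP+ groups averaged. In CDE minus UTR the ranges were -0.59 to 0.73 for H2-Aa, -0.41 to 0.28 for H2-Ab1, -0.33 to 0.51 for H2-Eb1, -0.23 to 0.24 for H2-DMa, -0.20 to 0.23 for Cd74, -0.52 to 0.85 for Ctss and -0.37 to 0.15 for H2-Oa. In DDC minus UTR they were -0.088 to 0.050 for H2-DMb1, -0.36 to 0.16 for H2-Oa and -0.057 to 0.092 for Ciita, and in DDC minus CDE -0.21 to 0.20 for H2-Oa and -0.10 to 0.049 for Ciita.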
